A study of Mus musculus with 12 samples.

Results

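The genes described here are 9 genes of the B cell receptor and the B cell surface: Cd79a, Cd79b, Ms4a1, Cd22, Blk, Cr2, Cd37, Pou2af1 and Blnk. They are 9 of the 21938 protein-coding genes that GENCODE M21 places on chromosomes 1 to 19, X and Y. They were selected on peaks of MOF, a lysine acetyltransferase of histone H4, in visceral white adipose tissue (WAT): a peak counted for a gene when it lay in the gene body or within 3 kb of any annotated start site. Which of the genes had a peak, how many, and how strong, are therefore descriptions and carry no test.

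MOF occupancy was measured by chromatin immunoprecipitation and sequencing (ChIP-seq) in C57BL/6 mice of 8 weeks on standard diet, either wild type (Mof+/+) or heterozygous for a loss of Mof (Mof+/-), to ask where MOF sits on the adipose genome and what a lower dose of its gene changes. The labels give 12 libraries in 6 groups of 2, namely ChIP of MOF, ChIP of histone H3 and input in each genotype, and the values used here are 2 peak lists, 1 for each genotype. The lists hold no value for a single library, and no difference between genotypes can be judged by how much animals vary. The design text and the labels differ on how many heterozygous animals there were. The study's reporting summary gives 2 littermates of each genotype for ChIP-seq. The tissue was minced, passed through a cell strainer and pelleted, and nuclei were washed free of residual fat, with no sorting of cells. In a bulk tissue, fewer cells of a type and less MOF per cell cannot be told apart.

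The B cell receptor is a membrane immunoglobulin held together with a dimer of Cd79a and Cd79b, whose cytoplasmic tails carry the motifs that start signalling. Src family kinases such as Blk phosphorylate those tails, the kinase Syk is recruited, and the adaptor Blnk then gathers Btk and phospholipase C gamma at the membrane. Coreceptors set the threshold: Cr2 (CD21) binds complement on antigen and lowers it, while Cd22 binds sialic acid and recruits the phosphatase encoded by Ptpn6. In adipose tissue B cells live among the stromal cells and in small lymphoid clusters.

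Each of the 9 genes had a peak in the Mof+/+ list and none had a peak in the Mof+/- list. Of all protein-coding genes, 44.5% had a Mof+/+ peak under the same rule and 1.89% a Mof+/- peak. Because the genes were chosen by these lists, neither count is read against these shares. Among the 9773 protein-coding genes with a Mof+/+ peak 4.06% also had a Mof+/- peak.

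Letters under some of the peaks are shown first, to give the sequence that the peaks at start sites cover. The summits, to which the fold values below belong, lie outside these promoter stretches. Those of 3 genes are printed, Cr2, Cd37 and Blnk, as examples of a peak over a start, and they are the bases before the start that hold a motif of a B cell transcription factor. They are printed from GRCm38 patch 6, from 5′ to 3′ in the direction of the gene, up to 300 bases and ending at the last base before the first start site. Capitals mark CAGGTG (an E box of E2A, read as CACCTG on the other strand), CCCNNGGG (an EBF1 site) and ATGCAAAT (the octamer).
Cr2 promoter, chr1:195176717-195176865, minus strand: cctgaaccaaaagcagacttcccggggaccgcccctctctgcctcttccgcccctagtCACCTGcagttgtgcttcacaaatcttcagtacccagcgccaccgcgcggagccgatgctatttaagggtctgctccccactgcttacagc
Cd37 promoter, chr7:45239116-45239415, minus strand: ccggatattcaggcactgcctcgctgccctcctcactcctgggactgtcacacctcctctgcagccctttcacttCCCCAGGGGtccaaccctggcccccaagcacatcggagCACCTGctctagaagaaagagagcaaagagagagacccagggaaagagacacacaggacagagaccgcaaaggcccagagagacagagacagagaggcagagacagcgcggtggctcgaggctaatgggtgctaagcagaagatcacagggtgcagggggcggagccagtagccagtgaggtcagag
Blnk promoter, chr19:40994536-40994835, minus strand: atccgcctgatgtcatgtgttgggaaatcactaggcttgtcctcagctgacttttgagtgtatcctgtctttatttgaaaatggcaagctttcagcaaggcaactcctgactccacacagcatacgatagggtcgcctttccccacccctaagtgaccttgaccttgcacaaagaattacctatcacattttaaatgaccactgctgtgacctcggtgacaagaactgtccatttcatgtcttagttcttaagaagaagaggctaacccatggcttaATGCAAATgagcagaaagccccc

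CAGGTG stood in the 300 bases before the first start of 6 of the 9 genes, and in the same window of 20.5% of all protein-coding genes. Beside the printed Cr2 and Cd37, the genes with this E box included Cd79a at position -38, Cd22 at -248 and Blk at -230 and -64. The windows of Cd79a, Cd22 and Blk lay outside the Mof+/+ peaks, so matches in them are not letters under a peak. Positions are those of the first base of the match, counted back from the start. CCCNNGGG was present in 2 of 9 genes and 15.5% of all, with its pair of matches in Cd37 overlapping each other. The octamer, which Pou2f1 and Pou2f2 bind and on which Pou2af1 acts as coactivator, was present in Blnk alone, at -23, and in 1.67% of all genes. The core of the PU.1 site, GAGGAA, was found in Cd79a at -24 and Blk at -48, and in 26.8% of all genes. The cyclic AMP response element TGACGTCA was in 0 of 9 genes and 2.06% of all. Both strands were searched, and different motifs did not overlap in these windows.

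The same motifs were counted around the 22 summits. In the 150 bases on either side of a summit, CAGGTG was present at 2 of 22 peaks, against 22.8% of all Mof+/+ peaks on these chromosomes. GAGGAA was present at 4 (all peaks 27.7%), CCCNNGGG at 4 (all peaks 15.9%), and the octamer and TGACGTCA at 0 (all peaks 1.39% and 0.633%). A match describes letters and is not a bound site, and the absence of one concerns these windows only.

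The strongest summits nearest to the starts of Cd79a and Cd79b themselves lay in introns. Chromatin was cut with CviKI-1, an enzyme that cleaves GC where a purine stands before it and a pyrimidine after it, as well as by sonication, so fragment ends depended in part on these letters. The sites are in capitals in the intronic bases around the summit of the first Cd79a peak, a stretch that holds 3 and stops at the exon boundary.
Cd79a intron, chr7:24899389-24899471, plus strand: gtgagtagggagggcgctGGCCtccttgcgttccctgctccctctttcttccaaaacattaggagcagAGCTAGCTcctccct

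Over the whole of the 22 peaks, these cut sites numbered between 12.9 and 28.4 per kb, with a median of 21.1. The median over all Mof+/+ peaks was 21.2 per kb (interquartile range 15.7 to 26.9).

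The 9 genes carried 22 Mof+/+ peaks, 1 to 6 per gene with a median of 2, where the median protein-coding gene with a peak had 1. Of these, 13 came within 1 kb of some start of the gene, 7 elsewhere in the gene body and 2 outside the gene but within 3 kb of a start. All 9 genes had a peak within 1 kb of a start, a property of 41.0% of all protein-coding genes by the Mof+/+ list and of 1.32% by the Mof+/- list. The nearest edge of the peak set this distance, and at 7 of the 9 genes a summit was within 1 kb. A start site lay inside a peak at 7 of the 9, and not at Cd79a and Blk. The summit fell in an intron of the gene at 10 peaks, in a coding exon at 2, in a non-coding part of an exon at 4 and outside the gene at 6. For 3 peaks the nearest annotated start belonged to another gene.

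**Figure D1:**
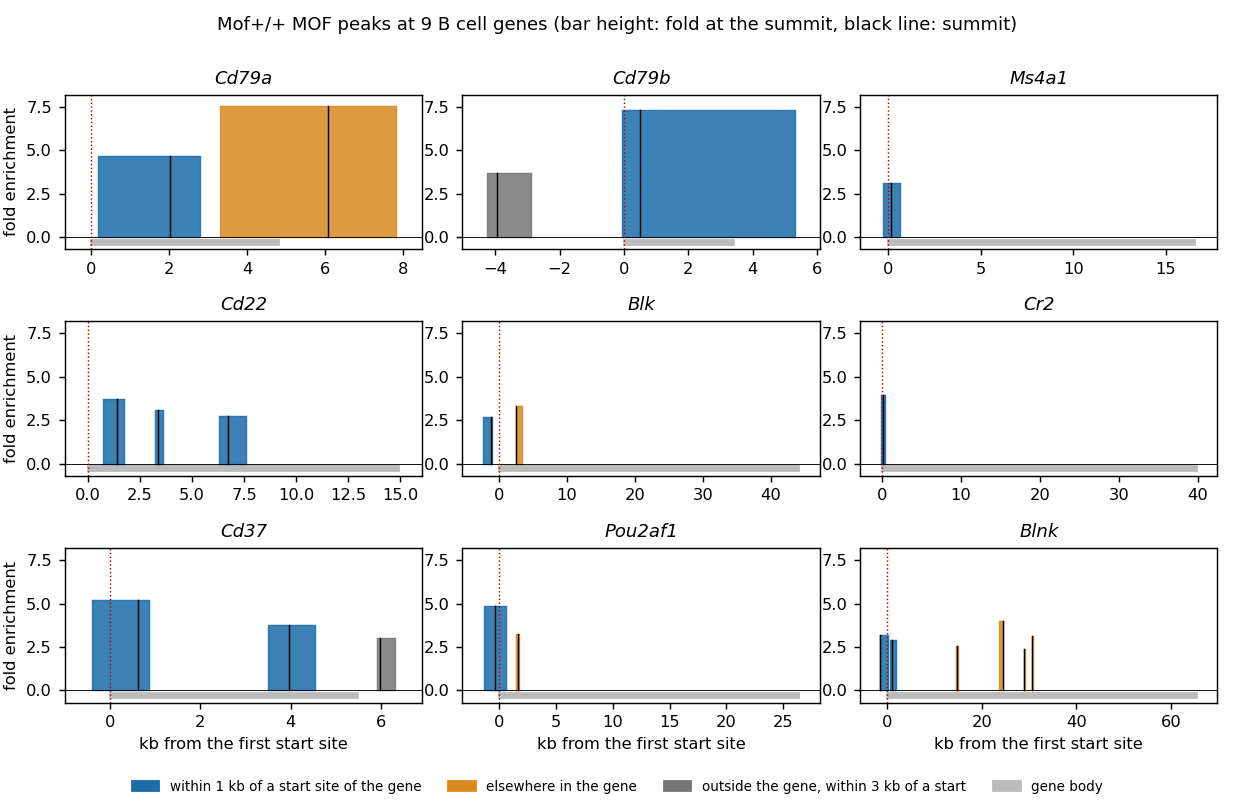
Mof+/+ peaks at each of the 9 genes along the direction of transcription: the x axis gives kb from the first start site (dotted line), the height of a bar the fold enrichment over input, the black line the summit and the grey strip the gene body. A peak spans the first start in Cd79b, Ms4a1, Cr2, Cd37, Pou2af1 and Blnk. The peaks cover all of Cd79b and reach far into Blnk.

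Cd79a and Cd79b, which encode Igα and Igβ, had the highest folds of the 9 genes and the largest covered shares, though the fold of Cd79a rests on a peak shared with a neighbour. By the peak nearest its own start Cd79a (4.65) came after Cd79b (7.30), Cd37 (5.22) and Pou2af1 (4.87). The fold is the number of fragments over the summit plus 1, divided by the local input background plus 1. Cd79b (chr11:106311341-106314762, minus strand) lay entirely under 1 peak of 5368 bp, chr11:106309453-106314820, so that 100% of its body was covered. Its summit was 254 bp inside the nearest start, in an intron, with 32 fragments, a fold of 7.30 and a −log10 p of 20.4. The exact Poisson 95% interval of that fold, with the background held fixed, was 5.06 to 10.2, and 1.84% of protein-coding genes with a Mof+/+ peak had a fold as high. A second peak of Cd79b, chr11:106317643-106319006, had a fold of 3.67 and 18 fragments. Its near edge was 2881 bp before the start, just inside the window, and its summit stood in a non-coding part of an exon of Scn4a, a sodium channel gene.

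Cd79a (chr7:24897381-24902197, plus strand) had 85.7% of its body under 2 peaks. The first, chr7:24897555-24900181, began 174 bp after the start and had its summit 2015 bp into the gene, in an intron, with 20 fragments and a fold of 4.65 (interval 2.92 to 7.05). The second, chr7:24900699-24905185, was the strongest of the 22, with 33 fragments, a fold of 7.52 (interval 5.25 to 10.5) and a −log10 p of 21.4. This peak ran over the end of Cd79a into Arhgef1, which encodes a guanine nucleotide exchange factor, and its summit was in an intron of Arhgef1, 388 bp from an Arhgef1 start. Without it Cd79a kept a fold of 4.65 and 54.5% of its body covered. The value of 7.52 is thus shared between neighbouring genes, and the lists cannot divide it.

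Blk and Blnk, the kinase and the adaptor behind the receptor, had weaker peaks, and the first of Blk lay upstream of the gene. Blk (chr14:63372836-63417037, minus strand) had a peak at chr14:63418012-63419428 with its summit 1119 bp before the start, 17 fragments and a fold of 2.67. Its other peak, in an intron 2544 bp after the start, had 14 fragments and a fold of 3.32 (interval 1.91 to 5.42). Blk had the fewest CpG sites of the 9 genes, 7 within 500 bp of its first start. Blnk (chr19:40928927-40994535, minus strand) had 6 peaks, the most of the 9, with folds between 2.38 and 3.97. The peak over its start, chr19:40994464-40996070, had its summit 1492 bp upstream, 14 fragments and a fold of 3.19. The strongest Blnk peak was not at the start but had its summit 24406 bp after the first start, in an intron. This peak, chr19:40969984-40970948, had 17 fragments and a fold of 3.97 (interval 2.40 to 6.22). Its interval overlapped those of the other Blnk peaks, and an order among them was not tested.

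The coreceptor genes Cr2 and Cd22 differed in layout. Cr2 (chr1:195136811-195176716, minus strand), which in the mouse gives both CD21 and CD35 by splicing, had 1 peak of 516 bp at its start, chr1:195176350-195176865. The summit was 17 bp from the nearest start, in a coding exon, with 17 fragments and a fold of 3.98 (interval 2.41 to 6.24), and 0.920% of the gene body was covered, the lowest share of the 9. Cd22 (chr7:30865402-30880342, minus strand) has 15 annotated starts, the most of the 9, and had 3 peaks, each within 1 kb of at least 1 of them. Its folds were 3.73, 3.10 and 2.73, with 16, 13 and 15 fragments, and 17.9% of the gene was covered. A start of Gm29439 was within 3 kb of the last of them.

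Ms4a1 and Cd37 encode the surface proteins CD20, the target of therapeutic antibodies to B cells, and a tetraspanin. Ms4a1 (chr19:11249675-11266241, minus strand) had 1 peak, chr19:11265609-11266547, with its summit 20 bp from the nearest start, 13 fragments and a fold of 3.10 (interval 1.75 to 5.14). This was the lowest of the strongest folds of the 9 genes, and 86.3% of protein-coding genes with a Mof+/+ peak had one as high. The summit also lay in an intron of 4930526L06Rik. Cd37 (chr7:45233632-45239115, minus strand) had 3 peaks. The peak at its first start, chr7:45238239-45239508, held 26 fragments and had a fold of 5.22 (interval 3.48 to 7.56), its summit being in a coding exon 310 bp from the nearest start, and a start of Slc6a16 was within 3 kb of it. The second, inside the gene with a fold of 3.75, and the third, outside it with a fold of 3.05, had a start of Tead2 within 3 kb, and the third was nearest to Tead2 at 991 bp. Tead2 overlaps Cd37 and encodes a transcription factor of the Hippo pathway, so the last peaks of Cd37 cannot be told apart from peaks of Tead2.

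Pou2af1, the coactivator also known as OBF-1 or Bob1, is the transcriptional regulator among the 9. Pou2af1 (chr9:51213708-51240080, plus strand) had a peak over its start at chr9:51212316-51214270, with the summit 355 bp upstream, 21 fragments and a fold of 4.87 (interval 3.10 to 7.32). A smaller intronic peak with 15 fragments and a fold of 3.27 was nearest to a start of Gm47828, at 390 bp. Its promoter held no match to the octamer in 300 bases.

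**Figure D2:**
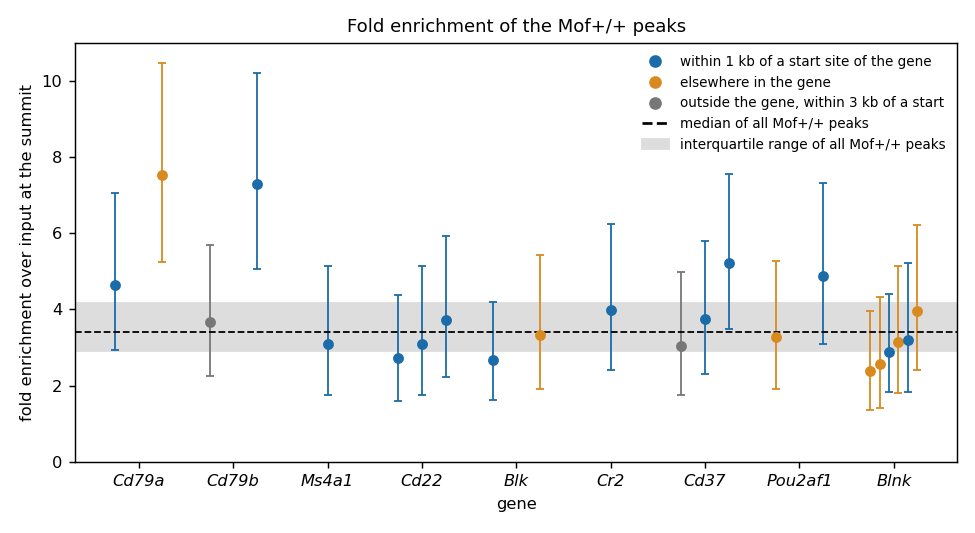
Fold enrichment over input at the summit of each of the 22 Mof+/+ peaks (y axis), by gene (x axis) and within a gene from low to high: bars are exact Poisson 95% intervals with the background held fixed, the dashed line is the median of all Mof+/+ peaks (3.40) and the band their interquartile range (2.90 to 4.17). Cd79a, Cd79b, Cd37 and Pou2af1 have points above the band, and most intervals overlap.

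By its strongest peak, the order of the genes was Cd79a (7.52), Cd79b (7.30), Cd37 (5.22), Pou2af1 (4.87), Cr2 (3.98), Blnk (3.97), Cd22 (3.73), Blk (3.32) and Ms4a1 (3.10). The intervals of neighbours in this order overlapped, and differences between them were not tested. The intervals of Cd79a and Ms4a1, at the ends, did not overlap, but this Cd79a value is the summit in Arhgef1, and the interval of its other peak did overlap that of Ms4a1. The median of the strongest folds was 3.98, the same value as the median over all protein-coding genes with a Mof+/+ peak (3.98, interquartile range 3.38 to 4.87), and 4 of the 9 genes were above it. Over the 22 peaks the fold ran from 2.38 to 7.52 with a median of 3.30, and 10 were above the median of the whole list, 3.40.

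The covered share of the gene body ran from 0.920% to 100% with a median of 5.17%, where the median over protein-coding genes with a peak was 2.79%. The genes with the highest covered shares, Cd79b, Cd79a and Cd37, were also the shortest of the 9, at 3422, 4817 and 5484 bp. The median length of all protein-coding genes was 17425 bp. Peak widths at the 9 genes ran from 300 to 5368 bp with a median of 1022.5, and the median of the whole Mof+/+ list was 609 bp.

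The start sites of the 9 genes were poor in CpG. Within 500 bp of the first start they held between 7 and 23 CpG sites with a median of 17, and all 9 were under the median protein-coding gene, which had 42. Among protein-coding genes, a Mof+/+ peak within 1 kb was found at 5.28% of those with fewer than 10 CpG sites and at 75.5% of those with 100 or more. Of the 8314 genes with at most 23 sites, the number in Cd37, 15.3% had a Mof+/+ peak under the first rule and 11.2% within 1 kb. That limit was taken from the genes themselves after their values were seen, and the 9 genes were chosen for having a peak, so these shares give the setting and no test.

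**Figure D3:**
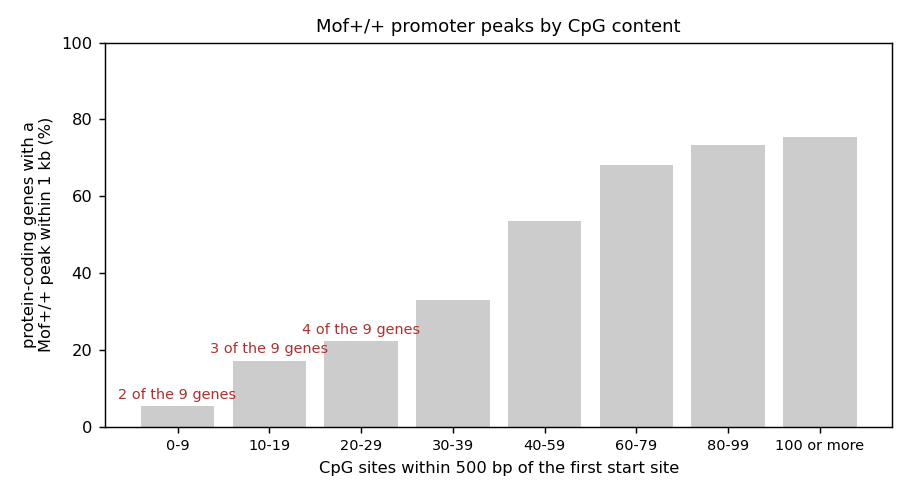
Share of protein-coding genes with a Mof+/+ peak within 1 kb of a start site (y axis, %), by CpG sites within 500 bp of the first start (x axis). The share climbs from 5.28% to 75.5%, and the labels over the bars place 2, 3 and 4 of the 9 B cell genes in the lowest 3 bins.

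Few fragments lay behind each value. At the 22 summits there were 12 to 33 fragments (median 16.5) over an input background of 3.52 to 6.26 fragments (median 3.74), and 8 peaks stood at the lowest background of the list. Ms4a1 and the second Cd22 peak had the same count, 13, over the same background, 3.52, and so the same fold, 3.10. Intervals cover counting error only, since fragments were amplified by PCR and the lists hold no replicate.

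The Mof+/- list had the lower input background, by which depth is judged here, and this bears on what the absence of a peak shows. Its lowest input background was 2.26 fragments, where the other genotype had 3.52, a ratio of 1.56, and its weakest peak had a −log10 p of 4.72, against 3.25. As deposited, 16 of the 22 summits, at 8 of the genes, were past that weakest p, and Ms4a1, at 4.70, was just short of it. When fragments and background at each Mof+/+ summit were divided by 1.56, with fragments rounded to whole numbers, and the p-value was computed again, 9 of the 22 summits were still past it. Over the whole Mof+/+ list this was the case for 68.6% of peaks as deposited and 37.0% when scaled. The 9 summits belonged to 6 genes, Cd79a, Cd79b, Cr2, Cd37, Pou2af1 and Blnk. At Ms4a1, Cd22 and Blk no summit was past it, the highest scaled −log10 p being 3.24, 4.56 and 3.90. A summit of Mof+/+ strength at these genes could therefore have gone unlisted in Mof+/-. The scaling takes no account of counting spread, and Cd22 fell short by less than 1 fragment.

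The summits that stayed furthest past the Mof+/- cutoff were those at Cd79b and at the end of Cd79a, each with a scaled −log10 p of 14.2, and the first peak of Cd37, at 9.20. Next were the first peaks of Cd79a and Pou2af1, both at 6.89. Of the 6085 protein-coding genes with a Mof+/+ peak past the cutoff when scaled, 5.65% had a Mof+/- peak. Of the 6 B cell genes among them 0 had one. Most genes of the Mof+/+ list thus also had no Mof+/- peak, and a difference in loss between the B cell genes and the others was not tested.

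**Figure D4:**
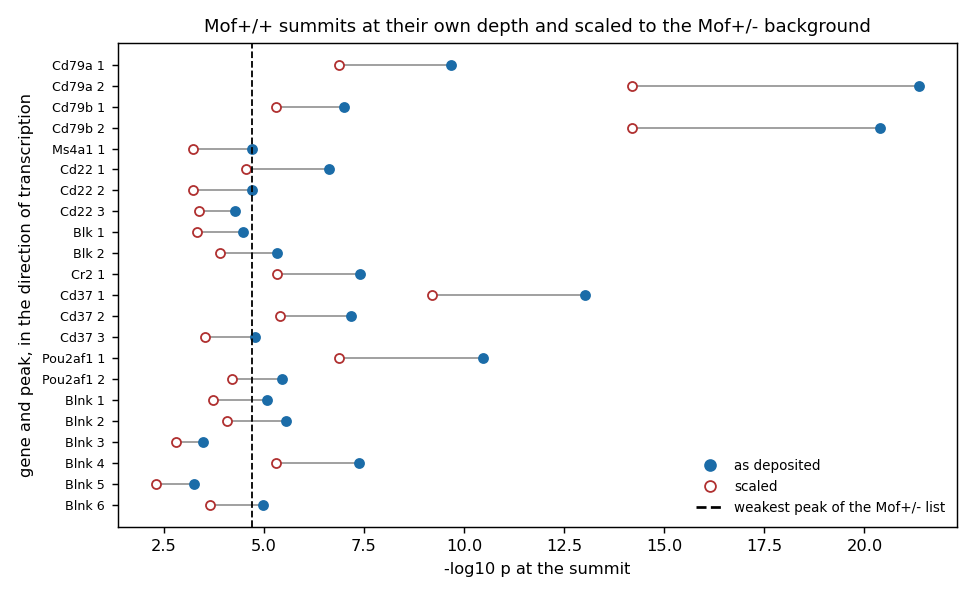
The −log10 p at the 22 Mof+/+ summits (x axis) as deposited (filled) and after fragments and background were scaled to the Mof+/- background (open), by gene and peak (y axis), with the weakest Mof+/- peak at 4.72 as a dashed line. The open points of 9 summits stay to the right of the line, none of them at Ms4a1, Cd22 or Blk.

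The nearest Mof+/- peak to any of the 9 genes was 106 kb from Blk, nearest to the start of Gata4, and the farthest was 4299.7 kb from Pou2af1, with a median of 393 kb. Within 100 kb of the 9 genes there were 63 other protein-coding genes, of which 34 had a Mof+/+ peak and 0 a Mof+/- peak, beside 44.5% and 1.89% of all protein-coding genes. With the nearest Mof+/- peak 106 kb from any of the 9 genes, that 0 was close to fixed. Around Ms4a1 none of its 6 protein-coding neighbours, including Ms4a5, Ms4a7, Ms4a12, Ms4a13 and Ms4a14 of the same family, had a Mof+/+ peak. Beside Cr2, its neighbour Cr1l, a complement regulator gene, had a peak of fold 7.61 at chr1:195130758-195131591, which was 5220 bp outside the window of Cr2 and above every fold at the 9 genes. The peak just outside the window of Cd37, chr7:45232145-45232424, missed it by 34 bp, with a fold of 2.75. The peak just outside that of Cd79a, with a fold of 2.91, was 1460 bp away, and that of Cd79b, with a fold of 4.20, was 2625 bp away. The Ms4a genes and Cr1l were picked out after their values were seen.

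Among other genes of the receptor pathway, those of the activating side were counted first. All 18 genes of this list had a Mof+/+ peak, 17 of them within 1 kb of a start, and 0 had a Mof+/- peak, with a median highest fold of 5.03. The shares of all protein-coding genes were 44.5%, 41.0% and 1.89%. The highest folds were those of the transcription factor gene Nfatc1 (6.19), of Plcg2, the phospholipase that Blnk gathers (5.97), of the protein kinase C gene Prkcb (5.97) and of Pik3cd, a catalytic subunit of phosphoinositide 3-kinase (5.89). Many of these genes serve other blood cells too, and the list had a median of 59 CpG sites where the 9 genes had 17. Of all protein-coding genes with at least 40 and fewer than 60 sites, 53.6% had a Mof+/+ peak within 1 kb.

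The inhibitory side, with a median of 13.5 CpG sites, had Mof+/+ peaks at 7 of 10 genes, each of them with at least 1 within 1 kb. The shares of all protein-coding genes were 44.5% under this rule and 41.0% within 1 kb. The 10 genes held 5 to 21 CpG sites. Of all protein-coding genes with at most 23, the limit taken from Cd37, 15.3% had such a peak and 11.2% had one within 1 kb. The strongest were at Csk, the kinase that holds Src family kinases inactive (6.64), at Ptpn6, the phosphatase recruited by Cd22 (5.97), at Cd5 (5.53) and at the adaptor gene Dok3 (4.54). Fcgr2b, the inhibitory Fc receptor, Siglecg, a relative of Cd22, and Pirb had none. No gene of this list had a Mof+/- peak, beside 1.89% of all protein-coding genes.

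Of 15 other B cell genes, with a median of 28 CpG sites (7 to 138), all had a Mof+/+ peak and 13 had 1 or more within 1 kb, where the shares of all protein-coding genes were 44.5% and 41.0%. The highest folds were at Cd38 (6.19), Bach2 (5.75), Pax5 (5.53) and the IgM Fc receptor gene Fcmr (4.81). Pax5, the factor that fixes B cell identity and acts on Cd79a, had 14 Mof+/+ peaks and was the gene of this list with Mof+/- peaks, 3 in number. Of 8 plasma cell genes, with a median of 45 CpG sites (7 to 71), 6 had a Mof+/+ peak, beside the same 44.5%, led by Xbp1 (6.75), Prdm1 (4.26), Irf4 (4.01) and Mzb1 (3.95). Prdm1, which turns off the B cell program in plasma cells, also had 2 Mof+/- peaks, and Jchain and Tnfrsf17, genes of antibody secreting cells, had no peak in either list.

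Genes of other cell types were counted the same way, with no test between lists and no matching for CpG sites. Of all protein-coding genes, 44.5% had a Mof+/+ peak under the first rule, 41.0% had one within 1 kb and 1.89% had a Mof+/- peak. Of 10 adipocyte genes, the cells the tissue is labelled for, with a median of 14 CpG sites (4 to 105), 8 had a Mof+/+ peak and 5 had at least 1 within 1 kb, with Lipe (5.09), Plin1 (4.20), Adipoq (3.62) and Fabp4 (3.54) highest and Lep and Retn without one. Of 10 T cell genes, with a median of 19.5 CpG sites (9 to 30), 8 had a peak, 6 within 1 kb, led by Cd3d (5.75), Lck (4.87), Lat (4.42) and Cd247 (3.81), while Cd4 and Zap70 had none. Of 10 macrophage genes, which had 5 to 18 CpG sites with a median of 10.0, 1 had a peak, Cd68 (5.75), with Adgre1, Csf1r and Itgam among those without. For genes as poor in CpG as this macrophage list, the share of all protein-coding genes with at most 23 sites was 15.3%, as given above. Of 10 endothelial genes, with a median of 20.0 CpG sites (10 to 100), 3 had a peak, Pecam1 (5.53), Flt1 (3.50) and Vwf (2.39), with Cdh5, Kdr and Tek among those without, and Flt1 had 2 Mof+/- peaks. Of 10 neuron genes, with a median of 36 CpG sites (7 to 82), 2 had a peak, Gad1 (4.20) and Camk2a (2.90), with Rbfox3, Snap25 and Syt1 among those without. A peak records MOF on chromatin and not expression, and the share of B cells or other lymphoid cells in the tissue was not tested.

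**Figure D5:**
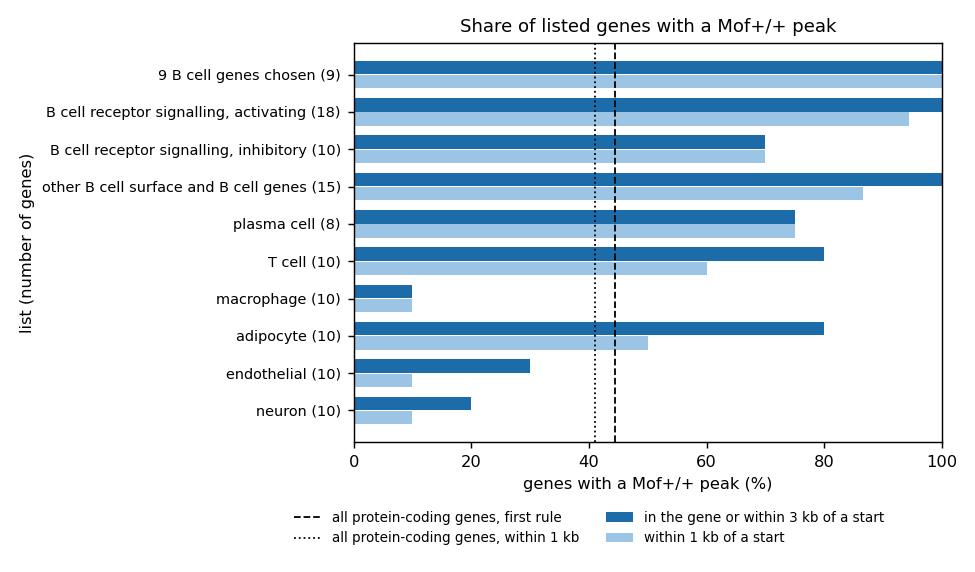
Share of the genes of each list with a Mof+/+ peak (x axis, %): dark bars count a peak in the gene or within 3 kb of a start, light bars within 1 kb, and the lines show all protein-coding genes (44.5% and 41.0%). The 9 genes chosen, the activating receptor genes and the other B cell genes are at 100% under the first rule, macrophage genes at 10.0% and neuron genes at 20.0%.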

How the data were processed

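MOF ChIP-seq was analysed in visceral WAT of Mof+/+ and Mof+/- mice. Per the submitters' processing notes and the study's methods, the authors mapped reads to GRCm38 and called peaks with MACS2 2.1.1.20160309.3 against input at a q-value of 0.1. The name of each list gave its genotype. How replicates were combined is not given in the sources used here. The methods also describe a merge of peaks at a distance of 1000 bp. It had not been applied to these lists, since merging them that way took the 22 peaks at the B cell genes to 19. The deposited fold enrichment is a ratio of fragments to input background at the summit, and the −log10 of the p-value and of the q-value, also deposited, are those of the authors' caller. The deposited summit position served as a coordinate. A score column was not used, and neither signal tracks nor H3 ChIP were analysed here. Some sequences under the peaks are not reported here. The MOF antibody in the labels differs from those in the study's reporting summary.

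Genes were taken from GENCODE M21 by symbol and sequence from GRCm38 patch 6, the build of the lists. Peaks were given to a gene with 1 bp of overlap, so a peak may count for neighbouring genes. Fragments and background were solved from fold and −log10 p within 0.002, which gave a whole number of fragments at 22 of 22 summits at the B cell genes. These steps were tested on simulated data. Depth per library is unknown, and intervals are exact Poisson at 95%. Python 3.11.15, pandas 2.3.3, scipy 1.17.1 and pysam 0.24.0 were used.

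The 9 genes, the 9 other lists (101 genes) and the motifs were chosen with earlier results of these data known, so no test was run on them. Genes named are the 9 with all their peaks, every listed gene with a Mof+/- peak, up to 4 genes of each list with the highest fold and up to 3 without a peak, and genes with a start within 3 kb of a peak of the 9. Scn4a, 4930526L06Rik, Gata4, the Ms4a neighbours and Cr1l were added after their values were seen. Alternatives were stricter q-values, a common p-value cutoff, other windows and start sites, merging of peaks within 1000 bp, scaling to the Mof+/- background and, chosen after seeing the data, leaving out the peak nearest to Arhgef1.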

Additional observations from a re-analysis of the deposited data

How the results depend on the processing

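Of 40 values on Mof+/+ peaks obtained over 11 alternative settings, 38 stayed within 1.5 times the count first given or, for the median fold, within the spread. The number of Mof+/+ peaks at the 9 genes was 22 as deposited, 10 when q was held to 0.001 or less and 9 after scaling to the Mof+/- background, where fewer fragments are left by construction. The number of genes with a Mof+/+ peak was 9 in most settings, 8 with a common p-value cutoff, 7 with q at 0.001 or less and 6 when scaled. The number with such a peak within 1 kb of a start was 9 as deposited and 8 with q at 0.01 or less. It was 7 with a common p-value cutoff, 7 with the summit inside the window and 6 with q at 0.001 or less. The number with a Mof+/- peak, 0, could not move in these settings, which narrow or tighten the rule while the nearest Mof+/- peak is 106 kb away, and so they say nothing of its stability. Leaving out the Cd79a peak nearest to Arhgef1, an alternative chosen after seeing the data, left 21 peaks. No paired analysis was possible because the peak lists carry no replicate number, and for the same reason no replicate could be left out. Depth limits the comparison of genotypes most at Ms4a1, Cd22 and Blk, whose scaled summits fell short of the weakest listed Mof+/- peak, Cd22 by less than 1 fragment.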
